A study of Mus musculus with 8 samples.

Results

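The 8 genes followed here encode transcription factors and cofactors of blood stem cells: Gata2, Tal1, Lmo2, Lyl1, Erg, Fli1, Ldb1 and Etv6. They were taken by symbol from a table of 33504 genes, all 8 were found, and all 8 were among the 13720 genes tested. RNA had been measured by poly(A)-selected sequencing of sorted mouse cells on a C57BL/6J background. There were 2 libraries of FL-HSC (hematopoietic stem cells of the fetal liver, embryonic day 14.5), 3 of ex-HSC (stage given as in vitro) and 3 of pre-HSC (stem cell precursors of embryonic day 11.5). Since their stage is in vitro, ex-HSC are taken here to come from the described culture, 4 days as reaggregates with OP9 (a mouse bone marrow stromal line), SCF, IL-3 and Flt3L. Some matings in the colony used males carrying a Ly6a-GFP transgene, and the labels do not say which libraries came from them. Sort gates are not given in the sources used here, nor is the origin of the replicates. The p-values therefore reflect library-to-library spread alone, which may be technical.

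These genes are known as a shared core of blood stem cell regulation. GATA2 is a zinc finger factor, TAL1 and LYL1 are related basic helix-loop-helix factors that bind DNA in pairs with E proteins, and ERG, FLI1 and ETV6 carry an ETS DNA-binding domain, ETV6 acting mainly as a repressor. LMO2 and LDB1 do not bind DNA themselves: LMO2 bridges TAL1 or LYL1 to a GATA factor, and LDB1 holds such complexes together and links enhancers to promoters. TAL1, LMO2, ERG, FLI1 and GATA2 also act in the endothelium from which the first stem cells arise, and GATA2 is also a mast cell factor.

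The labelled cell type was checked on its markers, and other cell types moved between the groups. All 11 stem cell markers examined were above 1 FPKM on average in FL-HSC and 10 of 11 were in ex-HSC and in pre-HSC. FPKM, a level per transcript length and sequencing depth, allows genes to be compared within a library. Slamf1 was under 1 FPKM in ex-HSC and in pre-HSC. Since 11682 to 12757 genes per library reached 1 FPKM, passing it does not establish the cell type. Against pre-HSC, 7 of the 11 were called higher and 1 lower in FL-HSC, and 5 higher and 2 lower in ex-HSC (limma adjusted p under 0.05). The 2 lower in ex-HSC were Procr and Mecom (log2 fold changes of -3.21 and -1.57). The summed FPKM of 15 endothelial markers was 458 to 515 in FL-HSC, 172 to 351 in ex-HSC and 3633 to 4055 in pre-HSC, and all 15 were lower in both later populations than in pre-HSC (limma adjusted p under 0.05). The summed FPKM of 12 mast cell and basophil markers was 435 in each FL-HSC library, 3474 to 7241 in ex-HSC and 59.8 to 105 in pre-HSC. Srgn, a proteoglycan gene that many blood cells express, made up most of the sum in FL-HSC (421 and 422 FPKM) and in pre-HSC (57.3, 65.8 and 94.2). The mast cell protease Cpa3 had 2.83 and 3.44 FPKM in FL-HSC, 1264, 617 and 603 in ex-HSC, against 0.705, 0.487 and 5.73 in pre-HSC, and was not called between FL-HSC and pre-HSC (limma adjusted p = 0.353). Of the 12, Srgn, Tpsb2, Hdc and Cma1 were called higher in FL-HSC than in pre-HSC and all 12 in ex-HSC than in pre-HSC. Among them, Tpsab1, Fcer1a and Gzmb were listed at 0 in every FL-HSC library, and Mcpt4, Mcpt8, Tpsb2, Tpsab1, Fcer1a and Prss34 in every pre-HSC library. The summed FPKM of 10 granulocyte markers was 525 to 632 in FL-HSC, 692 to 1003 in ex-HSC and 39.4 to 58.8 in pre-HSC. Against pre-HSC, 10 were called higher in FL-HSC and 9 in ex-HSC (limma adjusted p under 0.05), beside 22.9% and 15.7% of all genes tested. In bulk samples, fewer cells of a type and less RNA per cell cannot be told apart, and the part of these cell types in the results below was not tested. Read depth is unknown. Ex-HSC replicate 2 held the lowest ex-HSC value of all 8 genes and of 77.2% of the genes tested, and its median-of-ratios size factor was 0.740 against 0.991 to 1.17 in the other libraries.

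Related genes that rose together in FL-HSC, Tal1 and Lyl1 are shown with bases upstream of the gene in RefSeq's gene annotation. The Tal1 sequence is the whole of its first promoter window, of 250 bases. The Lyl1 window was ended at the base before the annotated gene, which leaves 216 of its 250 bases; the rest of the window, nearest the start that the promoter table uses, is not shown. The sequences are from RefSeq (GRCm38.p6, plus strand), 5′ to 3′, at chr4:115056176-115056425 for Tal1 and chr8:84701207-84701422 for Lyl1. Capitals mark 3 short words on either strand. The GATA word searched was GATAA. The E-box, which helix-loop-helix factors recognise, was searched as CANNTG. The core of ETS sites was searched as GGAA.
Tal1: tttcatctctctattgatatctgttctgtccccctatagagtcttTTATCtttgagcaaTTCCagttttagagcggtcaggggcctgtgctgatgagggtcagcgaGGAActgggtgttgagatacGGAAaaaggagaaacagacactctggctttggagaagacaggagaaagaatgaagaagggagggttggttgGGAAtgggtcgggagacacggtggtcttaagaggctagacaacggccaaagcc
Lyl1: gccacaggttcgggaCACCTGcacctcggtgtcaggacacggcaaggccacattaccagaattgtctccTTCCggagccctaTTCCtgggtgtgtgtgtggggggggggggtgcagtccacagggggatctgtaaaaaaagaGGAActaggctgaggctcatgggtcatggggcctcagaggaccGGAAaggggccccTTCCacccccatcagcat
The Tal1 window shown held 1 GATA word, 0 E-boxes and 4 ETS cores, and the shorter Lyl1 window held 0 GATA words, 1 E-box and 5 ETS cores, with no overlap between matches. A second Tal1 window, at chr4:115057561-115057810 and not shown, held 0 GATA words, 0 E-boxes and 3 ETS cores. Of 32851 RefSeq promoter windows of 250 bases, 22.6% held the GATA word, 66.2% an E-box and 93.4% an ETS core. No binding data were part of the series, and a match is not a site. Windows were given for 6 of the 8 genes, and the others are Lmo2 and Fli1.

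FL-HSC had the highest summed FPKM of this group of genes, with Lmo2 as the largest part of the sum. Not every gene was highest there. Fli1 averaged 57.6 FPKM in FL-HSC and 61.8 in pre-HSC, with overlapping libraries, and Gata2 averaged 71.5 in FL-HSC and 70.3 in ex-HSC. The 8 genes summed to 949 and 1010 FPKM in FL-HSC, 511, 284 and 485 FPKM in ex-HSC, against 527, 564 and 549 FPKM in pre-HSC. The FL-HSC libraries lay above all others, while the ex-HSC libraries all lay below the pre-HSC libraries, by a small margin in replicate 1. Per length, Lmo2 had the highest level in FL-HSC (367 ± 45.0 FPKM, SD, n = 2), followed by Ldb1 (181 ± 8.69) and Lyl1 (94.4 ± 9.26), each above the next gene in both libraries. Erg, Etv6 and Gata2 were within their spread of each other in FL-HSC (75.8 ± 16.1, 72.6 ± 11.5 and 71.5 ± 7.03 FPKM), as were Tal1 and Fli1 (59.3 ± 5.96 and 57.6 ± 7.66 FPKM). In ex-HSC, Ldb1 and Lmo2 led without differing beyond their spread (112 ± 30.8 and 108 ± 34.2 FPKM, n = 3), Gata2 came next (70.3 ± 33.7), and Erg and Tal1 were at the bottom (17.5 ± 7.37 and 12.6 ± 3.70). In pre-HSC the order began with Ldb1 (161 ± 4.68 FPKM) and Lmo2 (130 ± 13.4), and Fli1, Lyl1 and Erg followed within their spread of each other (61.8 ± 5.14, 59.6 ± 4.44 and 56.4 ± 8.78). Gata2 and Etv6 lay next (28.5 ± 1.35 and 27.4 ± 5.01), and Tal1 was lowest (21.5 ± 1.74).

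**Figure D1:**
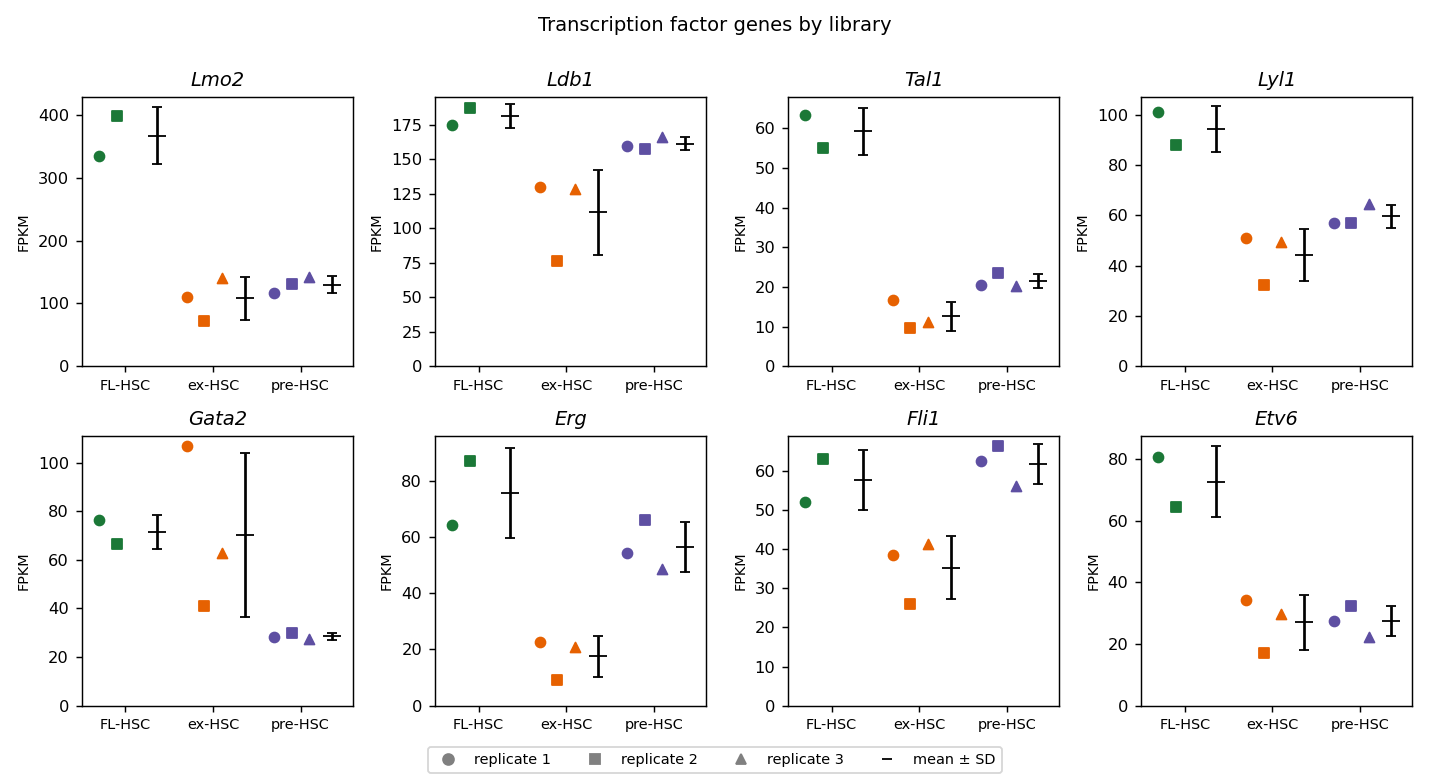
FPKM of each of the 8 genes (linear axis from 0) in every library of FL-HSC, ex-HSC and pre-HSC; points are libraries, and the bar beside them is the mean ± SD (n = 2, 3 and 3). Lmo2 in FL-HSC lies at 336 and 399 FPKM, above every library of the other groups, and ex-HSC replicate 2 (square) is the lowest ex-HSC point in all 8 panels.

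Against pre-HSC, FL-HSC had higher levels of 5 of the 8 genes and lower levels of none. Lmo2, Tal1, Etv6, Gata2 and Lyl1 rose, while Erg, Fli1 and Ldb1 did not pass the test. Of all 13720 genes tested in this comparison, 43.3% were called, 22.9% higher and 20.4% lower. The median log2 fold change was 0.97 over the 8 genes and 0.13 over all genes tested. A gene was called at a limma p under 0.05 after Benjamini-Hochberg adjustment over all genes tested, and log2 fold changes are on the log2(FPKM + 1) scale.

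Lmo2, the bridging protein, had 336 and 399 FPKM in FL-HSC, against 116, 131 and 143 FPKM in pre-HSC. Both FL-HSC libraries were far above all pre-HSC libraries, and the mean was 2.82-fold higher (log2 fold change 1.49 ± 0.26, limma adjusted p = 0.00100). Its partner Ldb1 had 175 and 187 FPKM in FL-HSC, against 160, 158 and 167 FPKM in pre-HSC. The Ldb1 libraries did not overlap, but the difference was small and did not pass (0.17 ± 0.24, limma adjusted p = 0.603), and other scalings gave the opposite sign (-0.0061 by the median of ratios and -0.090 by quantiles).

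Tal1 had 63.5 and 55.0 FPKM in FL-HSC, against 20.6, 23.5 and 20.3 FPKM in pre-HSC. The FL-HSC values were all higher, 2.76-fold on average (1.42 ± 0.24, limma adjusted p = 0.000781). Its relative Lyl1 had 101 and 87.8 FPKM in FL-HSC, against 57.0, 57.0 and 64.7 FPKM in pre-HSC. The groups did not overlap and the mean was 1.58-fold higher (0.65 ± 0.23, limma adjusted p = 0.0394). The Lyl1 call was lost when any 1 FL-HSC or pre-HSC library was left out, with adjusted p-values of 0.199 and 0.0803 without FL-HSC replicates 1 and 2 and 0.110, 0.103 and 0.0582 without pre-HSC replicates 1, 2 and 3.

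Gata2 had 76.4 and 66.5 FPKM in FL-HSC, against 28.3, 29.9 and 27.2 FPKM in pre-HSC. All FL-HSC values were higher, 2.51-fold on average (1.29 ± 0.32, limma adjusted p = 0.00816), and the adjusted p was 0.0548 without FL-HSC replicate 1. Etv6, the ETS repressor, had 80.7 and 64.5 FPKM in FL-HSC, against 27.6, 32.4 and 22.3 FPKM in pre-HSC, again with no overlap and 2.65-fold higher on average (1.38 ± 0.29, limma adjusted p = 0.00320). The other ETS genes of the group did not pass. Erg had 64.3 and 87.2 FPKM in FL-HSC, against 54.5, 66.0 and 48.8 FPKM in pre-HSC (0.41 ± 0.34, limma adjusted p = 0.352). Fli1 had 52.2 and 63.0 FPKM in FL-HSC, against 62.7, 66.4 and 56.3 FPKM in pre-HSC (-0.10 ± 0.23, limma adjusted p = 0.745), and its sign turned to 0.031 without FL-HSC replicate 1. For Erg and for Fli1 the libraries of the groups overlapped.

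Against the same pre-HSC libraries, the cultured ex-HSC gave another picture: Gata2 rose, Erg, Fli1 and Tal1 fell, and Lmo2, Lyl1, Ldb1 and Etv6 did not pass. In this comparison 44.1% of all genes tested were called, 15.7% higher and 28.4% lower (2154 and 3896 genes, but 3671 and 3855 with median-of-ratios scaling). The median log2 fold change was -0.51 over the 8 genes and -0.16 over all genes tested. Scaled by the median of ratios, which brought the median of all genes to -0.010, Gata2 still rose (1.34) and Erg (-1.55), Fli1 (-0.64) and Tal1 (-0.60) still fell. Both comparisons share the pre-HSC libraries, so each gene's changes are given side by side and the difference between the later populations was tested on its own below.

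Erg had the largest fall of the 8 genes. It had 22.7, 9.10 and 20.8 FPKM in ex-HSC, against 54.5, 66.0 and 48.8 FPKM in pre-HSC. Every ex-HSC value was far below every pre-HSC value, and the mean was 0.311 times that of pre-HSC (log2 fold change -1.72 ± 0.31, limma adjusted p = 0.000927). Fli1 had 38.5, 26.0 and 41.3 FPKM in ex-HSC, against 62.7, 66.4 and 56.3 FPKM in pre-HSC. The groups did not overlap and the ex-HSC mean was 0.571 times that of pre-HSC (-0.81 ± 0.21, limma adjusted p = 0.00813). Etv6 had 34.4, 17.1 and 29.6 FPKM in ex-HSC, against 27.6, 32.4 and 22.3 FPKM in pre-HSC. The Etv6 libraries overlapped and the gene did not pass (-0.061 ± 0.26, limma adjusted p = 0.869). The sign was the opposite without ex-HSC replicate 2 (0.23), without pre-HSC replicate 2 (0.062) and under either other scaling (0.11 by the median of ratios and by quantiles).

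Tal1 had 16.8, 9.78 and 11.2 FPKM in ex-HSC, against 20.6, 23.5 and 20.3 FPKM in pre-HSC. All ex-HSC values were lower, 0.585 times the pre-HSC mean (-0.76 ± 0.21, limma adjusted p = 0.0145), and the adjusted p was 0.0503 without ex-HSC replicate 3 and 0.0592 without pre-HSC replicate 2. Tal1 was thus called in opposite directions in FL-HSC and in ex-HSC. Lyl1 had 51.0, 32.2 and 49.5 FPKM in ex-HSC, against 57.0, 57.0 and 64.7 FPKM in pre-HSC. Its groups did not overlap, yet it did not pass (-0.45 ± 0.20, limma adjusted p = 0.0999), while with quantile normalization it did (-0.38, adjusted p = 0.00369).

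Lmo2 had 110, 72.9 and 141 FPKM in ex-HSC, against 116, 131 and 143 FPKM in pre-HSC. The libraries overlapped and Lmo2 did not pass (-0.31 ± 0.23, limma adjusted p = 0.309). Ldb1 had 130, 76.1 and 129 FPKM in ex-HSC, against 160, 158 and 167 FPKM in pre-HSC. The Ldb1 groups did not overlap and the test was just missed (-0.57 ± 0.21, limma adjusted p = 0.0523). It was passed with median-of-ratios scaling (-0.39, adjusted p = 0.0162), with quantile normalization (-0.65, 0.00196), with the replicate number as a block (-0.57, 0.0384) and when any 1 ex-HSC library was left out (adjusted p-values of 0.0431, 0.0298 and 0.0424 without replicates 1, 2 and 3).

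Of the 8 genes, only Gata2 was called higher in ex-HSC than in pre-HSC. It had 107, 40.9 and 62.9 FPKM in ex-HSC, against 28.3, 29.9 and 27.2 FPKM in pre-HSC. Even the lowest ex-HSC library was above every pre-HSC library, and the mean was 2.47-fold higher (1.17 ± 0.29, limma adjusted p = 0.00723). Within ex-HSC, Gata2 had the widest relative spread of the 8 genes, the highest library being 2.62 times the lowest. Gata2 was highest in ex-HSC replicate 1, in which the mast cell and basophil markers summed to 7241 FPKM, against 3474 and 3926 in replicates 2 and 3. That was not particular to Gata2, since replicate 1 held the highest ex-HSC value of 6 of the 8 genes. How much of the Gata2 level came from mast cells was not tested.

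**Figure D2:**
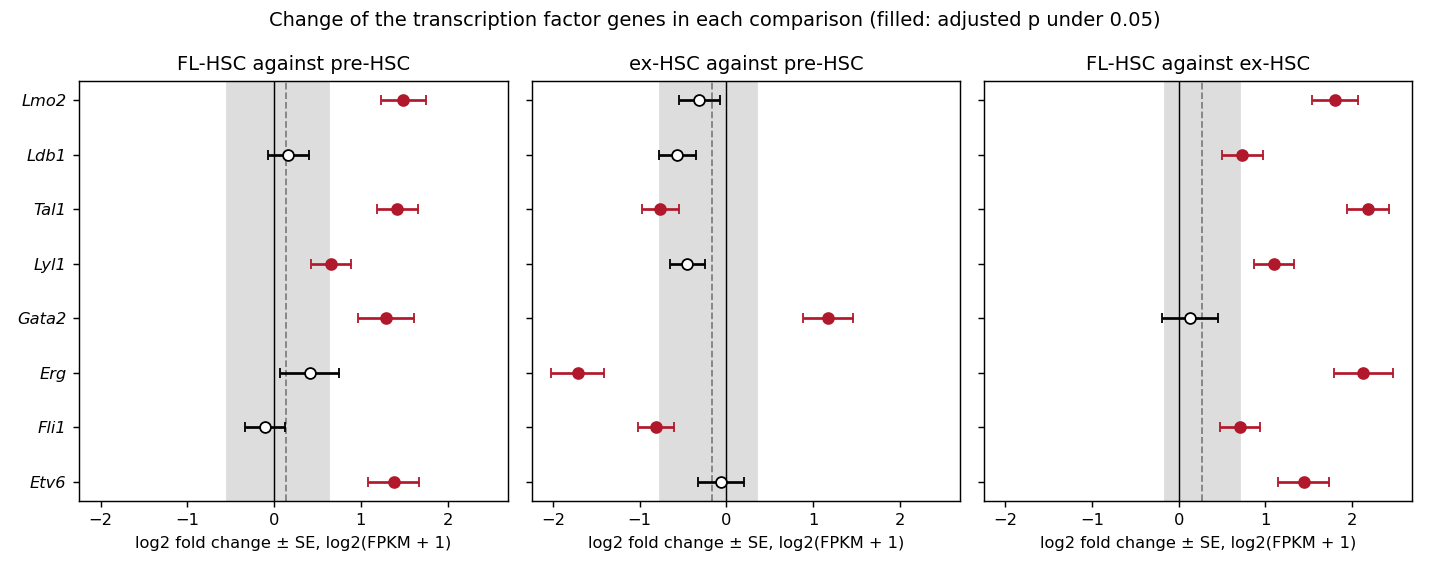
Log2 fold change ± SE on the log2(FPKM + 1) scale of the 8 genes in the 3 comparisons (limma); filled red points passed an adjusted p of 0.05, the gray band spans the 25th to 75th percentile of all 13720 genes tested and the dashed line is their median. Tal1 lies at 1.42 in FL-HSC against pre-HSC and at -0.76 in ex-HSC against pre-HSC, while Gata2 is above 1 in both.

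Set directly against ex-HSC, FL-HSC had higher levels of 7 of the 8 genes, and Gata2 was the one that did not pass. Of all genes tested here, 33.3% were called, 24.1% higher and 9.15% lower; the split was 3308 higher and 1256 lower, but 2473 and 2483 with median-of-ratios scaling. The median log2 fold change was 1.27 over the 8 genes and 0.27 over all genes tested, and scaling brought the median of all genes to -0.020. Tal1 had the largest difference: 59.3 ± 5.96 FPKM in FL-HSC (n = 2), against 12.6 ± 3.70 in ex-HSC (n = 3), 4.71-fold higher (log2 fold change 2.18 ± 0.24, limma adjusted p = 0.000111). Erg was 4.32-fold higher (2.13 ± 0.34, limma adjusted p = 0.00112), Lmo2 3.40-fold (1.80 ± 0.26, 0.000617), Etv6 2.69-fold (1.44 ± 0.29, 0.00411) and Lyl1 2.13-fold (1.10 ± 0.23, 0.00466). For all 7 genes that rose, both FL-HSC libraries were above all ex-HSC libraries. The share of all genes tested that were separated in this way was not counted.

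Fli1 and Ldb1 rose by less, and these calls were the least firm. Fli1 was 1.63-fold higher (0.71 ± 0.23, limma adjusted p = 0.0362), and with median-of-ratios scaling its change was 0.37 (adjusted p = 0.0585) and with quantile normalization 0.41 (0.0539). Ldb1 was 1.62-fold higher (0.73 ± 0.24, limma adjusted p = 0.0377), and with median-of-ratios scaling and ex-HSC replicate 2 left out together its change was 0.28 (adjusted p = 0.105). Both lost the call without either FL-HSC library, Fli1 with adjusted p-values of 0.0735 and 0.202 without replicates 1 and 2 and Ldb1 with 0.105 and 0.152. Both also lost it without pre-HSC replicate 1 (0.0610 for Fli1 and 0.0596 for Ldb1) and pre-HSC replicate 2 (0.0538 and 0.0534), and in a fit of the 2 groups alone (0.0710 and 0.0526). Gata2 averaged 71.5 ± 7.03 FPKM in FL-HSC and 70.3 ± 33.7 FPKM in ex-HSC (0.13 ± 0.32, limma adjusted p = 0.791), with the FL-HSC values inside the ex-HSC range. The sign was the opposite under other scalings (-0.21 by the median of ratios, -0.14 by quantiles) and without ex-HSC replicate 2 (-0.20).

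Ratios between 2 genes of the same library do not depend on a single factor by which that library is scaled. In this way 5 pairs of related or interacting genes were compared. Quantile normalization is not such a factor and was not applied to the ratios. With so few libraries the exact permutation test (two-sided) cannot go below p = 0.1 for 3 against 3 or p = 0.2 for 2 against 3, and every one of the 15 comparisons had a Benjamini-Hochberg adjusted p of 0.2. The ratios are therefore given as values, with whether the libraries overlapped.

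Lyl1 exceeded Tal1 in every library, and least so in FL-HSC. The ratio of Lyl1 to Tal1 FPKM was 1.59 and 1.60 in FL-HSC, 3.04, 3.29 and 4.43 in ex-HSC, against 2.77, 2.43 and 3.18 in pre-HSC. FL-HSC lay below both other groups without overlap, and ex-HSC and pre-HSC overlapped. Erg and Fli1, whose proteins are closely related ETS factors, differed in order between groups: the ratio of Erg to Fli1 was 1.23 and 1.38 in FL-HSC, 0.590, 0.350 and 0.504 in ex-HSC, against 0.870, 0.994 and 0.867 in pre-HSC. Erg was thus above Fli1 in both FL-HSC libraries and below it in all others, though nearly equal in pre-HSC replicate 2 (0.994). No groups overlapped in this ratio. The mean log2 ratio of Erg to Fli1 in ex-HSC minus that in pre-HSC was -0.95, with an exact permutation p of 0.1.

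The ratio of Lmo2 to Ldb1 was 1.92 and 2.13 in FL-HSC, 0.847, 0.958 and 1.10 in ex-HSC, against 0.725, 0.834 and 0.857 in pre-HSC. Lmo2 was about equal to Ldb1 or below it in ex-HSC and pre-HSC, which overlapped, and above it in FL-HSC. The ratio of Fli1 to Etv6 was 0.646 and 0.977 in FL-HSC, 1.12, 1.52 and 1.40 in ex-HSC, against 2.27, 2.05 and 2.52 in pre-HSC, with no overlap between any groups. Gata2 to Gata1 showed the widest range. Gata1, the erythroid and megakaryocytic relative that takes over from GATA2 at shared sites as red cells form, had 64.7 and 42.6 FPKM in FL-HSC, 14.6, 6.00 and 8.43 FPKM in ex-HSC, against 0.871, 1.05 and 0.799 FPKM in pre-HSC. The ratio of Gata2 to Gata1 was 1.18 and 1.56 in FL-HSC, 7.33, 6.83 and 7.46 in ex-HSC, against 32.5, 28.5 and 34.1 in pre-HSC. By geometric means, the ratio in FL-HSC was 0.189 times that in ex-HSC, a comparison in which Gata2 itself did not pass. The part of mast cells and of red cell precursors in this ratio was not tested.

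**Figure D3:**
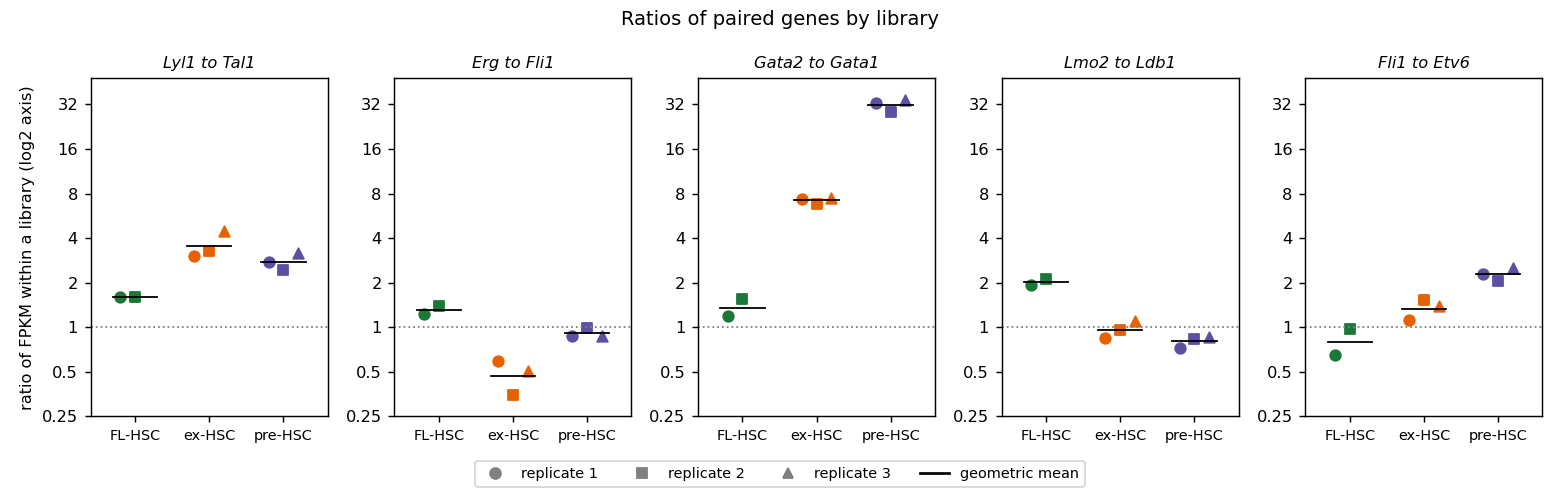
Ratio of the FPKM of 2 genes within each library (log2 axis, same range in all panels) for 5 pairs in FL-HSC, ex-HSC and pre-HSC; points are libraries, the black line is the geometric mean and the dotted line marks equal levels. The Gata2 to Gata1 ratio falls in 3 separate ranges, at 1.18 and 1.56, at 6.83 to 7.46 and at 28.5 to 34.1.

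Genes of proteins that work with these factors were counted next. Of 20 listed binding partners, 18 were in the table and tested. In FL-HSC against pre-HSC 8 rose and 1 fell (median log2 fold change 0.58), in ex-HSC against pre-HSC 2 rose and 5 fell (-0.29), and in FL-HSC against ex-HSC 8 rose and 0 fell (0.80). Beside these stand 43.3%, 44.1% and 33.3% of all genes called, with medians of 0.13, -0.16 and 0.27, so that the number of partners called against pre-HSC was near the background. The counts depended on scaling: with median-of-ratios scaling 8 rose and 5 fell in FL-HSC against pre-HSC, 5 rose and 7 fell in ex-HSC against pre-HSC, and 8 rose and 2 fell in FL-HSC against ex-HSC. Without ex-HSC replicate 2 the counts in that order were 10 and 3, 4 and 5, and 10 and 0. Cbfa2t3 and Zfpm1, also listed, were not analysed here.

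E proteins, the obligate partners of TAL1 and LYL1, differed from each other. Tcf3, which encodes E2A, had 149 and 132 FPKM in FL-HSC, 69.8, 41.9 and 75.3 in ex-HSC, against 99.2, 103 and 95.5 in pre-HSC. Tcf3 was lower in cultured cells than in pre-HSC (-0.70 ± 0.22, limma adjusted p = 0.0241; 0.0682 without pre-HSC replicate 1 and 0.0681 without replicate 2) and was higher in FL-HSC than in ex-HSC (1.20 ± 0.25, limma adjusted p = 0.00444). In FL-HSC against pre-HSC it did not pass (0.50 ± 0.25, limma adjusted p = 0.126), although without ex-HSC replicate 2 the adjusted p was 0.00633. Tcf4, which encodes E2-2, had 17.4 and 20.3 FPKM in FL-HSC, 15.9, 12.1 and 19.8 in ex-HSC, against 39.3, 45.6 and 30.6 in pre-HSC. It fell in both later populations, FL-HSC (-0.98 ± 0.25, limma adjusted p = 0.00984; 0.0723 without FL-HSC replicate 1) and ex-HSC (-1.23 ± 0.23, limma adjusted p = 0.00116). Tcf12, which encodes HEB, fell in ex-HSC against pre-HSC (-0.80 ± 0.22, limma adjusted p = 0.0113; 0.0544 without pre-HSC replicate 1), with 23.7, 16.3 and 23.6 FPKM in ex-HSC, against 40.8, 38.6 and 32.6 FPKM in pre-HSC. In FL-HSC it had 25.4 and 36.3 FPKM and did not pass against pre-HSC (-0.28 ± 0.24, limma adjusted p = 0.366).

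The SSBP proteins protect LDB1 from degradation, and the genes of this family did not all move alike. Ssbp4 had 97.0 and 75.0 FPKM in FL-HSC, 74.6, 57.6 and 92.8 in ex-HSC, against 66.1, 68.2 and 81.5 in pre-HSC, with overlap between all groups, and passed in no comparison (limma adjusted p = 0.417, 0.896 and 0.530 in FL-HSC against pre-HSC, ex-HSC against pre-HSC and FL-HSC against ex-HSC). Ssbp2 had 80.8 and 93.5 FPKM in FL-HSC, 45.3, 40.5 and 53.4 in ex-HSC, against 36.4, 33.6 and 34.2 in pre-HSC. It rose in FL-HSC against pre-HSC (1.30 ± 0.19, limma adjusted p = 0.000342) and against ex-HSC (0.90 ± 0.19, limma adjusted p = 0.00553; 0.0575 without FL-HSC replicate 2). Ssbp3 had 171 and 165 FPKM in FL-HSC, 77.1, 50.3 and 70.7 in ex-HSC, against 90.7, 95.0 and 98.5 in pre-HSC. It rose in FL-HSC against pre-HSC (0.82 ± 0.21, limma adjusted p = 0.00939; 0.0591 without FL-HSC replicate 1) and against ex-HSC (1.36 ± 0.21, limma adjusted p = 0.000937). Its fall in ex-HSC against pre-HSC (-0.54 ± 0.19, limma adjusted p = 0.0391) was lost in a fit without the trend (0.0520), without ex-HSC replicate 3 and without any 1 FL-HSC or pre-HSC library, with adjusted p-values of 0.0531 to 0.107.

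Runx1, a master factor of stem cell emergence that acts with these genes, had 41.7 and 45.3 FPKM in FL-HSC, 28.1, 13.5 and 32.1 in ex-HSC, against 12.6, 13.1 and 16.1 in pre-HSC. It rose in FL-HSC against pre-HSC (1.58 ± 0.32, limma adjusted p = 0.00242). In ex-HSC against pre-HSC it did not pass (0.70 ± 0.29, limma adjusted p = 0.0708), although without ex-HSC replicate 2 its change was 1.06 with an adjusted p of 0.000903. Gata1 rose against pre-HSC, by 4.81 ± 0.33 in FL-HSC (limma adjusted p = 1.25e-06) and 2.41 ± 0.29 in ex-HSC (5.83e-05), and was higher in FL-HSC than in ex-HSC (2.41 ± 0.33, 0.000413). Gfi1b, a repressor of erythroid and megakaryocytic cells that TAL1 complexes recruit, had 119 and 72.8 FPKM in FL-HSC, 7.77, 8.82 and 9.99 in ex-HSC, against 2.28, 5.70 and 2.04 in pre-HSC. It rose in FL-HSC against pre-HSC (4.54 ± 0.35, limma adjusted p = 2.87e-06). Of 9 erythroid markers tested, Gata1 among them, 6 rose and 1 fell in FL-HSC against pre-HSC and 5 rose and 1 fell in ex-HSC against pre-HSC. The one that fell was Hbb-y, an embryonic beta-type globin, with 46.0 and 5.71 FPKM in FL-HSC, 9.02, 12.9 and 11.6 in ex-HSC, against 501, 663 and 601 in pre-HSC (log2 fold changes of -5.04 ± 0.59 and -5.60 ± 0.53). The summed FPKM of the 9 was 263 to 438 in FL-HSC, 91.0 to 104 in ex-HSC and 553 to 742 in pre-HSC, where Hbb-y made up most of it. Within ex-HSC, Gata1 was highest in replicate 1, as were 6 of the 8 genes. The mast cell and basophil markers summed to 7241, 3474 and 3926 FPKM in ex-HSC replicates 1, 2 and 3, and the erythroid markers to 98.5, 104 and 91.0. The part of red cell precursors or of mast cells in the Gata1 and Gfi1b values was not tested.

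Genes whose proteins oppose the group were called lower or not called. ID proteins bind E proteins and keep them from TAL1 and LYL1, and RLIM marks LDB1 for degradation. Of these 5 genes, 3 fell and 0 rose in FL-HSC against pre-HSC, 2 fell and 0 rose in ex-HSC against pre-HSC, and 1 fell and 0 rose in FL-HSC against ex-HSC, where median-of-ratios scaling and quantile normalization each gave 2 that fell. The median log2 fold changes of the 5, in the same order, were -1.54, -0.75 and -0.32. Among all genes tested, 20.4%, 28.4% and 9.15% were called lower, with medians of 0.13, -0.16 and 0.27. Whether the counts of so few genes differ from these shares was not tested. Id3 had 16.4 and 12.1 FPKM in FL-HSC, 12.3, 9.59 and 18.9 in ex-HSC, against 145, 134 and 164 in pre-HSC. It fell in both later populations, FL-HSC (-3.30 ± 0.27, limma adjusted p = 4.71e-06) and ex-HSC (-3.39 ± 0.24, 1.02e-06). Id2 had 15.1 and 6.00 FPKM in FL-HSC, 59.2, 38.0 and 48.6 in ex-HSC, against 82.7, 68.4 and 94.5 in pre-HSC. It fell in FL-HSC against pre-HSC (-2.95 ± 0.33, limma adjusted p = 4.69e-05) and against ex-HSC (-2.20 ± 0.33, 0.000781). In ex-HSC against pre-HSC Id2 did not pass (-0.75 ± 0.30, limma adjusted p = 0.0617), but it passed without FL-HSC replicate 1 (0.0179) or replicate 2 (0.0174) and with the replicate block (0.0154). Id4 was low throughout, at 2.26 FPKM or less, and fell in both later populations. Id1 had 38.8 and 29.7 FPKM in FL-HSC, 34.3, 16.8 and 55.9 in ex-HSC, against 47.3, 51.6 and 49.8 in pre-HSC, and passed in no comparison, although without ex-HSC replicate 3 it fell in ex-HSC against pre-HSC (-1.01, adjusted p = 0.0185), and it fell in FL-HSC against pre-HSC in a fit of the 2 groups alone (-0.53, 0.0247) and with median-of-ratios scaling and ex-HSC replicate 2 left out together (-0.70, 0.0359).

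**Figure D4:**
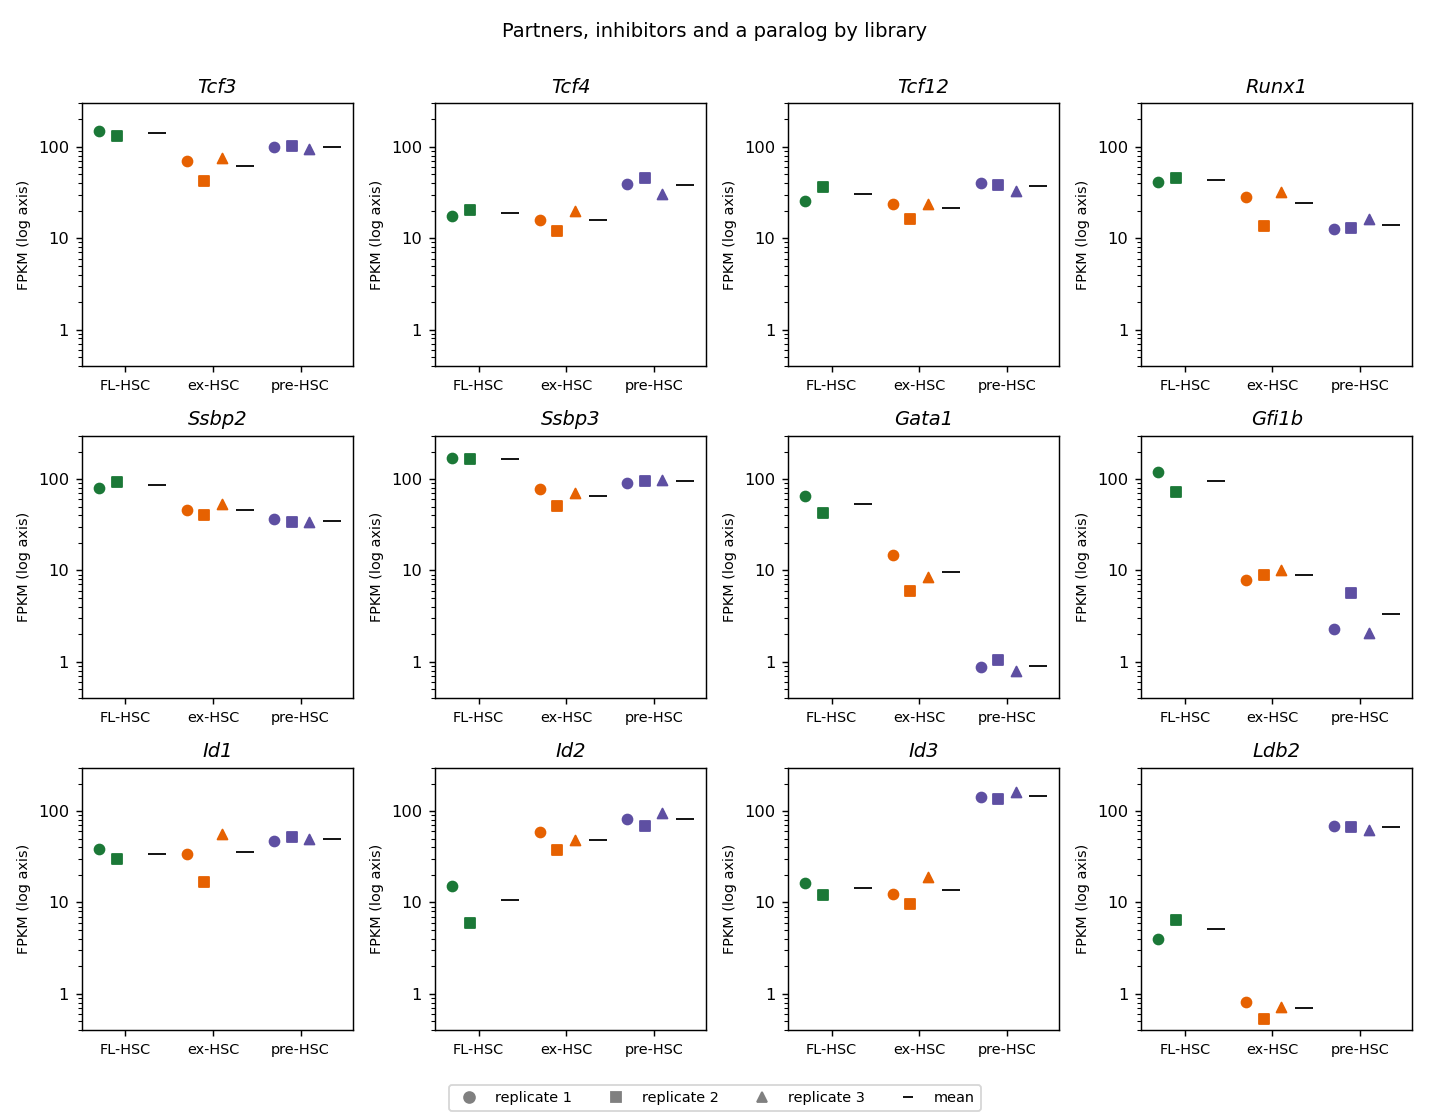
FPKM (log axis, same range in all panels) of E protein, RUNX1, SSBP, GATA1, GFI1B and ID genes and of the Ldb1 paralog Ldb2 in every library of FL-HSC, ex-HSC and pre-HSC; points are libraries and the bar is the mean. Id3 lies at 134 to 164 FPKM in pre-HSC and at 9.59 to 18.9 FPKM in all other libraries, while Gata1 lies at 42.6 and 64.7 FPKM in FL-HSC, at 6.00 to 14.6 FPKM in ex-HSC and at 0.799 to 1.05 FPKM in pre-HSC.

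Relatives of the 8 genes were counted in the same way. Of 14 other ETS genes tested of 15 listed, 2 rose and 4 fell in FL-HSC against pre-HSC, 2 rose and 8 fell in ex-HSC against pre-HSC, and 1 rose and 0 fell in FL-HSC against ex-HSC, with medians of -0.05, -0.59 and 0.25, and with quantile normalization 4 rose in ex-HSC against pre-HSC. The 6 called of 14 in FL-HSC against pre-HSC are a share near the 43.3% of all genes called there. In ex-HSC against pre-HSC, 8 of 14 fell, beside 28.4% of all genes tested. In FL-HSC against ex-HSC, 1 of 14 rose, beside 24.1% of all genes tested. Whether these counts differ from the shares was not tested. The medians of all genes tested were 0.13, -0.16 and 0.27 in the same order. Ets1, an ETS factor of endothelium and lymphocytes, had 4.61 and 6.77 FPKM in FL-HSC, 5.53, 2.73 and 4.69 in ex-HSC, against 94.6, 109 and 78.7 in pre-HSC. It fell in both later populations, FL-HSC (-3.84 ± 0.28, limma adjusted p = 2.12e-06) and ex-HSC (-4.19 ± 0.25, 2.94e-07), as did Ets2 (-2.47 ± 0.26 and -2.73 ± 0.24) and Elk3 (-2.10 ± 0.24 and -2.69 ± 0.22). Elf1, an ETS factor of blood cells, rose in both later populations, FL-HSC (1.16 ± 0.22, limma adjusted p = 0.00169) and ex-HSC (1.00 ± 0.20, 0.00185). All 15 endothelial markers also fell against pre-HSC in both, and their part in the Ets1, Ets2 and Elk3 values was not tested.

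Of 9 paralogs in the GATA, LMO, LDB and TAL families, 7 were tested: 3 rose and 3 fell in FL-HSC against pre-HSC, 1 rose and 3 fell in ex-HSC against pre-HSC, and 3 rose and 0 fell in FL-HSC against ex-HSC, with medians of 0.27, 0.31 and 0.62. Among all genes tested, 43.3%, 44.1% and 33.3% were called in these comparisons, with medians of 0.13, -0.16 and 0.27. The paralog that rose in ex-HSC against pre-HSC was Gata1, also counted among the binding partners and the erythroid markers. In ex-HSC against pre-HSC 2 rose with median-of-ratios scaling or without ex-HSC replicate 2, and 4 with quantile normalization. Ldb2, the relative of Ldb1, had 3.96 and 6.41 FPKM in FL-HSC, 0.816, 0.535 and 0.720 in ex-HSC, against 68.8, 67.6 and 62.9 in pre-HSC, and fell in both later populations, FL-HSC (-3.47 ± 0.23, limma adjusted p = 1.09e-06) and ex-HSC (-5.32 ± 0.21, 2.89e-08). Gata6 and Gata4, GATA factors of heart, gut and mesoderm, also fell in both, with log2 fold changes of -3.52 and -3.22 for Gata6 and -1.75 and -2.37 for Gata4. Stromal markers moved with them, at a summed 11.7 to 15.9 FPKM in FL-HSC, 17.3 to 32.8 FPKM in ex-HSC and 313 to 599 FPKM in pre-HSC, and their part was not tested. Lmo1, a relative of Lmo2, had 6.02 and 4.76 FPKM in FL-HSC, against 1.16, 1.43 and 1.71 FPKM in pre-HSC, and rose (1.39 ± 0.26, limma adjusted p = 0.00151). Tal2 and Lmo3 were listed at 0 in both FL-HSC libraries and reached no more than 0.499 FPKM elsewhere.

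Genes with regulatory elements known to be bound by several of these factors were also counted. Of 16 listed, 15 were tested: 7 rose and 5 fell in FL-HSC against pre-HSC, 4 rose and 5 fell in ex-HSC against pre-HSC, and 8 rose and 1 fell in FL-HSC against ex-HSC. The medians were 0.60, -0.17 and 0.97, and without ex-HSC replicate 2, 7 rose in ex-HSC against pre-HSC. Among all genes tested, 43.3%, 44.1% and 33.3% were called in the same order, with medians of 0.13, -0.16 and 0.27. The median in ex-HSC against pre-HSC was thus near that of all genes. Gfi1b, described above and also counted among the binding partners, was among those that rose. Kdr, Cdh5, Tek and Eng, which endothelium expresses and which are also counted among the endothelial markers, fell in both later populations. Of the 4, the changes were largest for the VEGF receptor Kdr (-6.25 ± 0.24 in FL-HSC and -6.49 ± 0.21 in ex-HSC) and for Cdh5, VE-cadherin (-5.77 ± 0.38 and -6.52 ± 0.34). Tek and Eng, receptors of angiopoietin and of the TGF-beta family, were higher in FL-HSC than in ex-HSC (2.40 ± 0.32, limma adjusted p = 0.000349, and 2.13 ± 0.37, 0.00185).

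Genes whose pattern was most like that of each factor were looked for among 9847 genes with a group mean of at least 5 FPKM, by Pearson's r of log2(FPKM + 1) over the 8 libraries, which share their group and their scaling. For Tal1 these were Gemin4, Fbxl18 and Gigyf2 (r = 0.986 to 0.993), for Lyl1 Scrib, Poldip3 and Fam53b (0.993 to 0.995), and for Lmo2 Minpp1, Lsm11 and Tusc1 (0.991 to 0.995). For Erg they were Ube3b, Ddx11 and Slc43a1 (0.994 to 0.996), for Fli1 Pank4, Cuedc1 and Prr11 (0.990 to 0.993), for Etv6 Rbm10, Zfp213 and Pabpn1 (0.992 to 0.993), and for Ldb1 Nek9 and Kansl3 (0.993 and 0.989). For Gata2 they were Gars, Ppm1d and Slc7a1, at a lower r of 0.975 to 0.982. None of these nearest genes was another of the 8.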

How the data were processed

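RNA was measured in 8 libraries, grouped by their labels (2 FL-HSC, 3 ex-HSC and 3 pre-HSC). The authors deposited 1 FPKM value per gene and library, per the file headers. The submitters' processing notes name Cufflinks, featureCounts, edgeR and DESeq with build mm9, without versions or roles. Depth is unknown, so counting error cannot be given, and no count model was run. Left out were 27 rows with dates in place of symbols.

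Values were taken as log2(FPKM + 1). Genes with at least 1 FPKM in 2 libraries were tested in limma 3.58.1 (R 4.3.3) with 1 mean per group and an intensity trend, p-values being adjusted by Benjamini-Hochberg over all genes tested, and the fit was tested on simulated data. Fold changes on this scale understate those of low genes. Ratios used an exact permutation test. The 8 genes, the lists and the tests were chosen with earlier results of these data known. Named were all 8 genes, a fixed set of partners whatever their call, and up to 4 called genes of each list with the largest change in a comparison. Elf1 in FL-HSC against pre-HSC, Lmo1 against pre-HSC, Tek and Eng in FL-HSC against ex-HSC, Ssbp4, Tal2, Lmo3 and Slamf1 fall outside that rule and were chosen after their values were seen. The alternatives were other pseudocounts, filters, scalings and designs and leaving out each library; leaving out ex-HSC replicate 2 together with median-of-ratios scaling was added after seeing the data. Some genes that this rule names are not reported here.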

Additional observations from a re-analysis of the deposited data

How the results depend on the processing

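The number of the 8 genes called was 5 in FL-HSC against pre-HSC, 4 in ex-HSC against pre-HSC and 7 in FL-HSC against ex-HSC. With no filter on low values it was 3, 2 and 4, the calls lost being Gata2 and Lyl1, Gata2 and Tal1, and Fli1, Ldb1 and Etv6; the cause was not tested. Leaving out each library in turn gave 3 to 5, 3 to 5 and 5 to 7, the lowest in FL-HSC against pre-HSC without FL-HSC replicate 1. Other alternatives stayed within 1.5 times. With the replicate block the numbers were 5, 5 and 7; same-numbered libraries had correlations of -0.114 to 0.144 between their deviations from the group means, so the numbers were not taken as pairs. The median log2 fold change of all genes tested was 0.13, -0.16 and 0.27, and -0.0051, -0.010 and -0.020 with median-of-ratios scaling. Quantile normalization called 4280 genes higher and 3424 lower in ex-HSC against pre-HSC, and 2827 and 2225 in FL-HSC against ex-HSC.

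Among the genes refitted, the sign turned only for genes that passed under neither setting. With median-of-ratios scaling, quantile normalization, and the added alternative, these were Etv6 in ex-HSC against pre-HSC (0.11, 0.11 and 0.26), Ldb1 in FL-HSC against pre-HSC (-0.0061, -0.090 and -0.0089), and in FL-HSC against ex-HSC Gata2 (-0.21, -0.14 and -0.40), Id1 (-0.25, -0.22 and -0.56), Id3 (-0.22, -0.23 and -0.30) and Tcf4 (-0.074, -0.076 and -0.11). Leaving out each library gave ranges of -0.26 to 0.23 for Etv6, -0.20 to 0.48 for Gata2, -0.36 to 0.48 for Id1 and -0.11 to 0.35 for Id3 in those comparisons, and of -0.24 to 0.031 for Fli1 in FL-HSC against pre-HSC. The cause was not tested. No difference in a pair ratio changed sign under its alternatives, which were a pseudocount and leaving out each library. Quantile normalization was not among them. Replicates number 2 or 3 per group and depth is unknown, which limits small changes such as those of Ldb1, Fli1 and Lyl1.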
